A study of Mus musculus with 5 samples.

Results

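Regions that carry both H3K27me3 and H3K4me1 were described in mouse progenitors transduced with Hoxa9 and Meis1. They were chosen by a rule on the authors' peak lists: autosomal H3K27me3 regions under 10000 bp that share at least 1 bp with an H3K4me1 region. The rule found 4269 regions among 28890 autosomal H3K27me3 regions under 10000 bp (14.8%) and 33769 H3K27me3 regions in all. They are called dual regions below, a name for the overlap of 2 lists and not for a chromatin state. The other 24621 regions under 10000 bp had no H3K4me1 call and are called regions without H3K4me1.

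H3K27me3 is laid down by the Polycomb complex PRC2 and marks genes that are kept silent, often over CpG-rich promoters of developmental regulators. H3K4me1 is laid down mainly by the MLL3 and MLL4 methyltransferases and marks enhancers and the flanks of promoters. Regions with both marks are known from stem cells, where they include poised enhancers. Hoxa9 is a homeodomain factor that blocks differentiation when it is overexpressed, Meis1 is its cofactor, and C/EBPα is a basic leucine zipper protein needed for myeloid differentiation.

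The cells were lineage-depleted bone marrow progenitors of C57B6 mice, carried the retroviruses MIGR1-HA-Hoxa9 and MIGR1-Flag-Meis1, and were cultured with IL3. All 5 libraries came from such transduced cells, so no untransduced cells were compared. Chromatin immunoprecipitation and sequencing (ChIP-seq) was done once each for Hoxa9, through the HA tag of the introduced protein, and for C/EBPα, H3K4me1 and H3K27me3. The input library was not used here, and how many transductions or animals the cells came from is not given in the sources used here. Peak lists hold no expression values, so the labelled cell type was not checked against marker genes.

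The H3K4me1 list held 100189 regions with 6242014 tags, and the H3K27me3 list 33769 regions with 7470847 tags. The fewest tags in a called region were 14 and 20. The Hoxa9 and C/EBPα lists held 6578 and 26446 peaks. The total reads of each library were not given in the sources used here, so depth is known only through these calls. With 1 library behind each list, there is no replicate error and no test was made. Exact 95% intervals on shares cover counting error only. Neighbouring regions are not independent, so these intervals may be too narrow. The bulk libraries cannot tell 2 marks on the same nucleosome from marks on different alleles or in different cells.

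The dual regions were wider and more strongly marked than the other H3K27me3 regions under 10000 bp. Their median width was 3490 bp, with quartiles of 1629 and 5784 bp, against 855 bp in regions without H3K4me1 (quartiles 648 and 1392 bp). They held a median of 383 H3K27me3 tags against 49. The median tag density, which is tags divided by width, was 0.104 tags per bp against 0.0574. The authors' fold enrichment, a ratio given by the peak caller, had a median of 12.5 against 5.76. A wide region meets another list more easily by position alone, so each value was also compared within 4 classes of width: under 1000 bp, 1000 to 2000 bp, 2000 to 5000 bp and 5000 to 10000 bp, each without its upper bound. These differences describe the lists and have no replicate behind them.

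Within width classes the difference in density was small in narrow regions and larger in wide ones. Under 1000 bp, 619 dual regions had a median of 0.0559 tags per bp and 14858 regions without H3K4me1 had 0.0544. From 1000 to 2000 bp the medians were 0.0685 in 675 dual regions and 0.0619 in 5995 others. From 2000 to 5000 bp they were 0.106 in 1563 dual regions and 0.0794 in 3075 others. From 5000 to 10000 bp they were 0.161 in 1412 dual regions and 0.133 in 693 others. The quartiles overlapped in every class: in the widest they ran from 0.133 to 0.188 in dual regions and from 0.0964 to 0.162 in the others. Fold enrichment followed the same order, with medians of 5.42 in both sets under 1000 bp, and of 24.04 and 17.94 from 5000 to 10000 bp.

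The share of regions that met H3K4me1 was set against shifted lists. The H3K4me1 list was moved along each chromosome by 80 fixed offsets, every 25 kb up to 1 Mb in both directions, and the overlap was counted again. Shifts of this size keep the broad neighbourhood of each region. Over all widths, 14.8% of regions met H3K4me1 (95% exact interval 14.4 to 15.2), and the shifted lists gave 17.2% on average, with a range from 14.7% to 19.4%. The observed share was 0.858 times the shifted mean, and 79 of the 80 shifts gave as high a share or a higher one. This direction turned under 3 other settings: the ratio was 1.22 in the upper 50% of the H3K27me3 list by p score, 1.05 at a false discovery rate of 1% or less, and 1.52 with shifts of any size along the chromosome. The overlap chose the dual regions, so these shares are a description.

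That pooled ratio was a mixture of 2 opposite patterns. Regions under 1000 bp met H3K4me1 in 4.0% of cases (3.70 to 4.32), against 13.8% in shifted lists, whose lowest value was 11.2%. From 1000 to 2000 bp the share was 10.1% (9.41 to 10.9) against 17.2%, still under the lowest shift of 14.1%. From 2000 to 5000 bp it was 33.7% (32.3 to 35.1) against 22.1%, above the highest shift of 25.3%. From 5000 to 10000 bp it was 67.1% (65.0 to 69.1) against 31.6%, and the highest shift gave 35.4%. The ratios to the shifted mean were 0.290, 0.587, 1.52 and 2.12 in order of width. Width went together with the strength of the call. Under 1000 bp the median p score was 81.9 in dual regions and 73.2 in the others, where the lowest in the list was 50.01. From 5000 to 10000 bp it was 3100 in both, but 1396 dual regions shared exactly this score, so equal medians do not show equal strength. The lower quartiles there were 3100 in dual regions and 2001.89 in the others. Only 2200 of the 15477 regions under 1000 bp were in the upper 50% of the list by p score, and their ratio was 0.404.

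**Figure D1:**
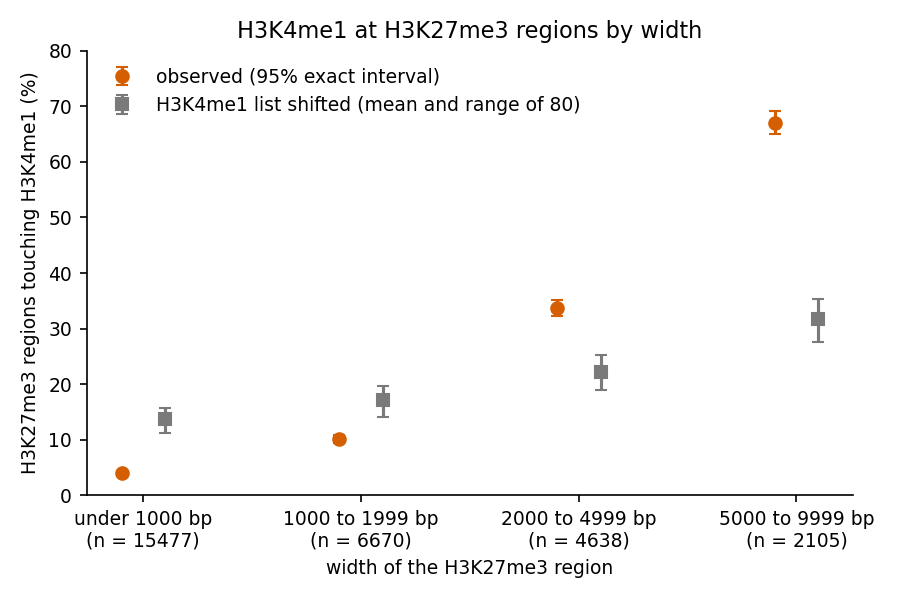
Share of autosomal H3K27me3 regions that touch H3K4me1, in percent, by width of the H3K27me3 region. Orange points are observed shares with 95% exact intervals, grey squares the mean and range of 80 shifts of the H3K4me1 list. Observed shares lie under the shifted range below 2000 bp and above it from 2000 bp on, reaching 67.1% against 31.6%.

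Every autosome showed this reversal with width. Among regions of 2000 bp or more, the share exceeded the shifted mean on 19 of 19 autosomes, with ratios from 1.21 to 2.44, and ran from 38.6% on chromosome 2 to 55.5% on chromosome 10. Among regions under 1000 bp, 0 of 19 autosomes exceeded the shifted mean, and the ratios ran from 0.150 to 0.497. Over all widths 7 of 19 autosomes exceeded it.

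H3K27me3 density divided the regions further within a width class. The 4638 regions of 2000 to 5000 bp were divided into 4 equal groups by H3K27me3 tags per bp, with bounds at 0.0722, 0.0863 and 0.117. The share that met H3K4me1 was 12.4% in the thinnest group, then 25.4%, 42.0% and 55% in the densest. Shifted lists gave 23.0%, 23.9%, 22.2% and 19.4% for the same groups, so the shifted level did not rise with density. The thinnest group lay under its lowest shift of 18.2% and the densest above its highest of 22.8%. From 5000 to 10000 bp the 4 groups had 44.7%, 67.7%, 72.2% and 83.7%. Under 1000 bp they had 2.82%, 3.33%, 4.01% and 5.84%, all under the lowest shift of their group. From 1000 to 2000 bp only the densest group, with 19.7%, lay above its shifted mean of 16.8%, within the shifted range of up to 20.1%.

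The association had a short range. Among regions of 2000 bp or more, 44.1% met the H3K4me1 list where it stood, 43.2% after a move of 1 kb, 33.6% after 3 kb and 24.1% after 5 kb (means of both directions). The lowest value was 21.5%, at 7.5 kb, and the share then rose to 27.4% at 250 kb and fell again to 22.4% at 1000 kb. Regions under 1000 bp ran the other way, from 4.0% in place to 8.77% at 5 kb, 11.3% at 25 kb and 15.4% at 250 kb, and then also fell, to 12.1% at 1000 kb. For these narrow regions the share was still low at 15 kb, with 10.2% against a lowest value of 11.2% among the 80 shifts. Moves of 25 kb belong to those 80 shifts, so a low share from that distance on cannot be read from them.

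**Figure D2:**
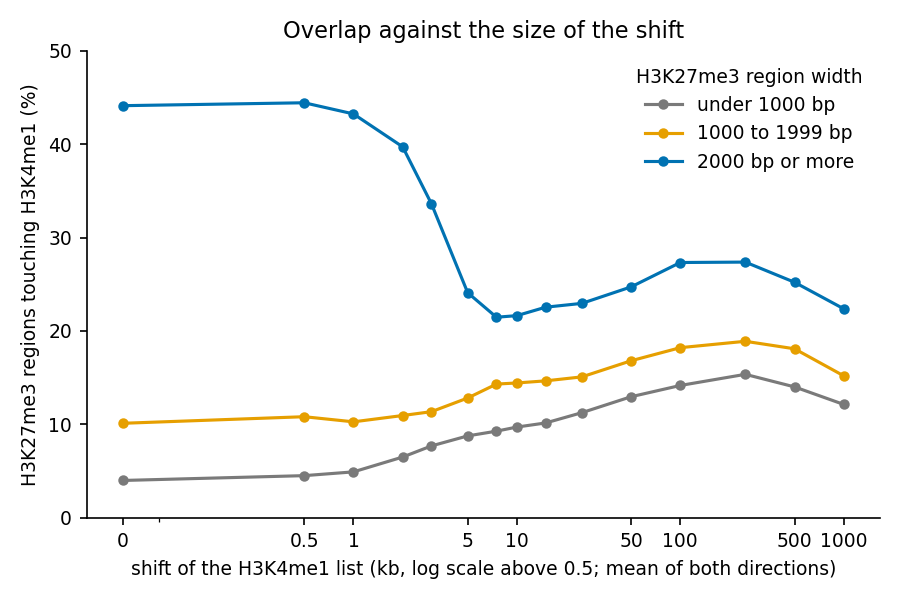
Share of autosomal H3K27me3 regions under 10000 bp that touch H3K4me1, in percent, against the distance by which the H3K4me1 list was moved, in kb on a log scale above 0.5 kb. Lines are 3 width classes and points are means of both directions. Wide regions fall from 44.1% in place to 24.1% at 5 kb, and regions under 1000 bp rise from 4.0% to 15.4% at 250 kb and fall to 12.1% at 1000 kb.

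H3K4me1 covered only part of most dual regions. The median share of bases under H3K4me1 was 26.7%, with quartiles of 15.1% and 46.5%, and the median covered length was 789 bp. Over all dual regions together, 25.7% of bases were covered. Coverage under 10% was seen in 530 dual regions, from 10% to 25% in 1454, from 25% to 50% in 1344, from 50% to 75% in 501 and from 75% upward in 440. The most covered of these 5 groups was also the narrowest, with a median width of 890 bp, against 5558.5 bp in the least covered. By width class the median share was 67.4% under 1000 bp, 41.2% from 1000 to 2000 bp, 26.2% from 2000 to 5000 bp and 17.8% from 5000 to 10000 bp. A single H3K4me1 region touched 3318 dual regions (77.7%), 2 touched 741, and 3 to 6 touched the rest.

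In most dual regions H3K4me1 lay inside and did not reach an edge. All touching H3K4me1 regions lay wholly inside in 2378 dual regions (55.7%, 54.2 to 57.2), and in 515 of these there were 2 or more. H3K4me1 crossed 1 edge in 1643 (38.5%), of which 354 also held an H3K4me1 region inside. Separate H3K4me1 regions crossed both edges in 82 (1.92%), and 1 H3K4me1 region spanned the whole of 166 (3.89%). In regions met by shifted lists, the same classes took 18.1%, 52.6%, 8.75% and 20.5% on average. Edges were crossed on the side of the lower coordinate in 824 of the 1643 and on the higher in 819.

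Placement depended on width. As a share of dual regions, H3K4me1 only inside exceeded the shifted mean in each class, but in number it did so only from 1000 bp on. From 5000 to 10000 bp, H3K4me1 lay only inside in 83.4% of dual regions (81.3 to 85.3) against 49.6% in shifted lists, whose highest value was 56.9%. From 2000 to 5000 bp the values were 59.2% and 32.2%, and from 1000 to 2000 bp 31.4% and 13.6%. Under 1000 bp they were 10.2% and 3.93%, and there 67.2% crossed 1 edge. In numbers of regions, shifted lists placed H3K4me1 only inside 330.35 regions of 5000 to 10000 bp on average, against 1177 observed. The numbers were 330.85 against 926 observed from 2000 to 5000 bp and 155.75 against 212 from 1000 to 2000 bp. Under 1000 bp the order turned, with 83.7 in shifted lists (62 to 112) against 63 observed, and there H3K4me1 crossed 1 edge in 1119 shifted cases against 416. Shifted lists spanned a region under 1000 bp whole in 773 cases on average, against 128. Both edges were crossed in fewer regions than in any shift in every class: 12 regions under 1000 bp, where the lowest shift gave 107, then 23 against 82, 37 against 65 and 10 against 29.

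**Figure D3:**
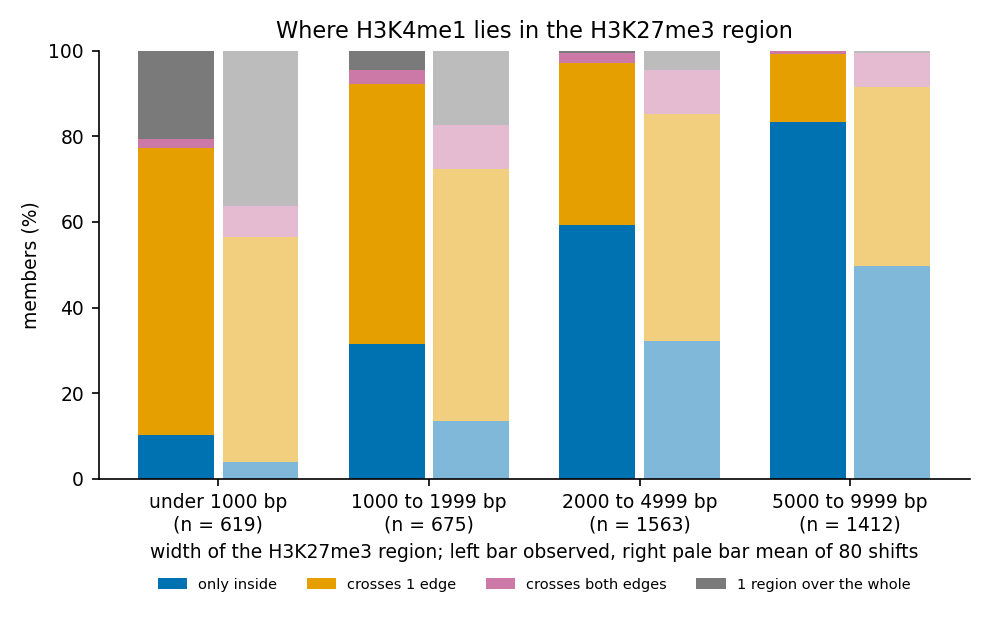
Placement of H3K4me1 in dual regions, in percent of dual regions, by width class. Left bars are observed, right pale bars the mean of 80 shifts. The part with H3K4me1 only inside grows from 10.2% to 83.4% with width and exceeds the shifted mean as a share in each class, though under 1000 bp the number of such regions (63) lies under the shifted mean of 83.7.

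In dual regions of 2000 bp or more, H3K4me1 lay over the H3K27me3 maximum more often than over other points. The caller's summit, the position of most H3K27me3 tags, lay under H3K4me1 in 2738 dual regions of all widths, or 64.1% (62.7 to 65.6). The mean share of bases covered was 34.4%. From 5000 to 10000 bp the summit was covered in 72.2% (69.7 to 74.5), against 20.5% of bases. Summits tend to lie near the middle of a region, so the point mirrored across the middle, at the same distance from an edge, was read as well. It lay under H3K4me1 in 29.5% of these wide dual regions. The summit alone was covered in 669 and the mirrored point alone in 67. From 2000 to 5000 bp the summit was covered in 61.4% and the mirrored point in 29.1%. From 1000 to 2000 bp the values were closer, with 52.9% and 44.9%. Under 1000 bp the values were 65.1% and 67.5%, so no such preference was seen in dual regions of that width.

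The same holds when all autosomal regions of a width class are counted, whether or not they met H3K4me1. Among 2105 regions of 5000 to 10000 bp, H3K4me1 covered 48.4% of the H3K27me3 summits, 42.5% of points 250 bp to either side, 29.2% at 500 bp and 17.3% at 1000 bp. At 2500 bp it was 5.49%, under the lowest value of shifted lists at that distance, 7.77%. Shifted lists covered 9.19% of the summits. Among 4638 regions of 2000 to 5000 bp the summit value was 20.7%, and at 1500 bp 7.07%. In regions of 1000 to 2000 bp and under 1000 bp the summit values were 5.35% and 2.60%, both under the shifted means of 9.78% and 9.68%.

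**Figure D4:**
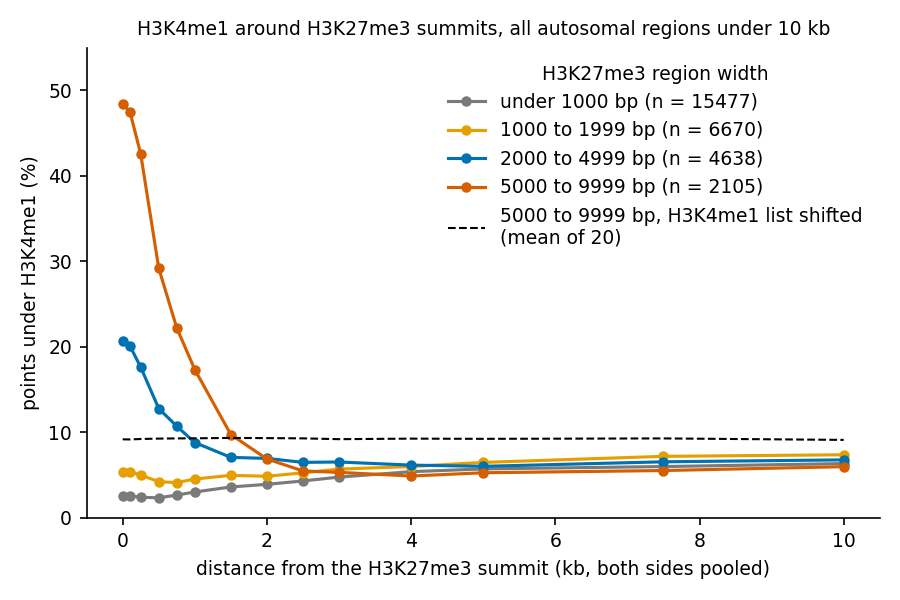
Share of points under H3K4me1, in percent, against the distance from the H3K27me3 summit in kb, for all autosomal H3K27me3 regions under 10000 bp in 4 width classes. The dashed line is the mean of 20 shifts for the widest class. That class falls from 48.4% at the summit to 5.49% at 2.5 kb, under the shifted level, and the narrow classes stay under it throughout.

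H3K4me1 summits were most often central in the widest dual regions. Of 1989 H3K4me1 summits in dual regions of 5000 to 10000 bp, 1264 lay in the central of 3 equal parts of the region (63.5%, 61.4 to 65.7). Their median distance to the H3K27me3 summit was 517 bp and to the nearer edge 2525 bp. From 2000 to 5000 bp, 46.1% of 1665 lay in the central part. From 1000 to 2000 bp it was 30.9% of 499, and under 1000 bp 47.0% of 338 (41.6 to 52.5), so the share did not follow width throughout.

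The H3K4me1 regions inside dual regions resembled other H3K4me1 regions in median width and density, but fewer of them were wide. Dual regions were touched by 5290 H3K4me1 regions, of which 3515 lay wholly inside and 1775 crossed an edge. The median width was 704 bp for those inside, 1116 bp for those crossing an edge, and 769 bp for the 92267 autosomal H3K4me1 regions that touched no H3K27me3. Median densities were 0.0399, 0.0452 and 0.0406 H3K4me1 tags per bp in the same order, and median fold enrichments 4.94, 5.56 and 4.82. The upper quartile of width was 1103 bp for those inside and 1422 bp for those that touched no H3K27me3. A wider region meets an edge more easily. This by itself favours wide H3K4me1 regions among those that cross and narrow ones among those wholly inside. Across dual regions, the densities of both marks were weakly related (Spearman's rho = 0.104 over 4269 regions that share 2 libraries and local mapping, given as a description).

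The regions named here were chosen by rule: extreme values of placement, coverage or factor summits, so their values describe them and test nothing. All coordinates are of build mm9, and gene names are not given because no annotation of that build was used here. The highest fold enrichment of any dual region was 46.72, at chromosome 9 from 42747695 to 42752939 (5245 bp, 0.218 tags per bp). There a single H3K4me1 region covered 1320 bp and crossed 1 edge. The highest with H3K4me1 only inside was 45.29, at chromosome 15 from 79999593 to 80004071, where a 625 bp H3K4me1 region with 46 tags lay in 4479 bp and a C/EBPα summit was present. A value of 44.35 followed at chromosome 7 from 152045259 to 152054149, where 2 H3K4me1 regions covered 21.5%. In each of these 3 the H3K27me3 summit lay under H3K4me1.

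Regions spanned whole by H3K4me1 reached lower enrichments, but they were also narrow, with a median width of 735 bp. Their median fold enrichment was 5.42, the same as in all dual regions under 1000 bp. The highest fold enrichment among the 166 regions spanned whole was 25.03, at chromosome 12 from 114114059 to 114117726, where 3668 bp with 787 H3K27me3 tags lay within an H3K4me1 region of 6082 bp and 360 tags. A value of 18.28 followed at chromosome 6 from 29475800 to 29478804. Among regions crossed at both edges the highest were 28.78 at chromosome 5 from 38665856 to 38670606 and 26.49 at chromosome 12 from 112908234 to 112913218. Each of these last 2 also held an H3K4me1 region inside, of 2382 and 2603 bp, and 1 of its flanking H3K4me1 regions entered by only 86 and 36 bp.

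Long stretches of both marks were found at a few places. The most H3K4me1 bases, 5787, lay at chromosome 7 from 146765875 to 146774467, in 3 H3K4me1 regions over 67.3% of 8593 bp. The following were 5663 bp at chromosome 2 from 119147180 to 119156109 and 5611 bp at chromosome 7 from 28115832 to 28125565. None of these 3 held a factor summit. The fold enrichment was 43 at chromosome 14 from 104865723 to 104873567, where 5 H3K4me1 regions covered 63.7%. At the other extreme, H3K4me1 entered 9121 bp at chromosome 5 from 110922910 to 110932030 by 2 bp, and 8675 bp at chromosome 4 from 129113340 to 129122014 by 39 bp. It entered 8434 bp at chromosome 16 from 22145013 to 22153446 by 45 bp. In these 3 the H3K27me3 summit was not under H3K4me1.

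The limits of the rule divided similar regions. The longest dual region was 9990 bp, at chromosome 3 from 84104545 to 84114534, with 12.4% covered, and the shortest H3K27me3 region over the limit that met H3K4me1 was 10016 bp, at chromosome 7 from 117003544 to 117013559, with 8.85% covered. The smallest overlap was 1 bp, at chromosome 13 from 37195324 to 37196104. The region at chromosome 9 from 64486394 to 64487210 lay directly beside an H3K4me1 region and shared no base with it. An overlap under 100 bp held for 134 dual regions, and 190 regions without H3K4me1 lay less than 100 bp from an H3K4me1 region.

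Few dual regions held a Hoxa9 summit. There were 21 such regions (0.492%, 0.305 to 0.751), each with 1 summit, where 0.128% of all 28890 regions under 10000 bp held one. The share was 1.50% when called peaks were counted in place of summits and 0.141% with the upper 50% of the factor lists by p score. Shifted Hoxa9 lists placed a summit in 1.36% of the dual regions on average and in 0.867% at least, so the observed share was 0.361 times the shifted mean. Regions without H3K4me1 held a Hoxa9 summit in 16 cases (0.0650%), against 0.496% in shifted lists, a ratio of 0.131. H3K4me1 chose the dual regions, and most summits of both factors lay in H3K4me1 (4349 of 6578 for Hoxa9 and 16019 of 26446 for C/EBPα in H3K4me1 regions that touched no H3K27me3), so the contrast between these ratios has no test.

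C/EBPα summits were found in more dual regions. There were 205 with at least 1 summit and 210 summits in all (4.80%, 4.18 to 5.49), where 0.935% of all regions under 10000 bp held one. The share was 7.85% with called peaks in place of summits and 1.78% with the upper 50% of the factor lists. Shifted lists gave 5.91% on average, with a range of 4.40% to 7.59%. The observed share lay low in that range, and 3 of the 80 shifts gave as low a share or a lower one. In regions without H3K4me1, 65 held a summit (0.264%), against 2.16% in shifted lists, a ratio of 0.122. Both factors had a summit in 5 dual regions, and 4048 dual regions (94.8%) held neither.

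The level of C/EBPα relative to shifted lists was lower in wider dual regions, with ratios of 2.07, 1.31, 0.969 and 0.592 in order of width. H3K4me1 chose the dual regions, and the median share of bases under it fell in the same order: 67.4%, 41.2%, 26.2% and 17.8%. Shifted summits do not keep their position relative to H3K4me1, so the order of these ratios has no test. Under 1000 bp, 17 of 619 dual regions held a summit (2.75%, 1.61 to 4.36) against 1.33% in shifted lists, whose highest value was the same 2.75%. From 1000 to 2000 bp the shares were 3.41% and 2.60%, and from 2000 to 5000 bp 5.05% and 5.22%. From 5000 to 10000 bp, 86 of 1412 held a summit (6.09%, 4.90 to 7.47) against 10.3%, under the lowest shift of 7.72%. Hoxa9 summits were in 3, 0, 7 and 11 dual regions in order of width, too few for an order to be read. The count of 0, among 675 dual regions of 1000 to 2000 bp, allows a share of up to 0.545% (exact interval).

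Within dual regions, the summits lay mostly in the bases under H3K4me1. These bases made up 4.29 Mb and held 141 C/EBPα summits, or 32.9 per Mb (95% exact Poisson interval 27.7 to 38.7). The remaining 12.4 Mb held 69, or 5.58 per Mb (4.34 to 7.06). For Hoxa9 the densities were 2.80 per Mb (12 summits, 1.44 to 4.88) and 0.727 per Mb (9 summits, 0.333 to 1.38).

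H3K4me1 inside H3K27me3 nevertheless held fewer factor summits than H3K4me1 elsewhere. H3K4me1 regions that touched no H3K27me3 held 144 C/EBPα summits per Mb (142 to 146) and 39.0 Hoxa9 summits per Mb (37.9 to 40.2). H3K4me1 regions wholly inside a dual region held 25.7 (20.3 to 32.0) and 1.95 (0.715 to 4.24). The H3K4me1 regions that crossed an edge allowed a comparison within the same regions. Their bases inside the dual region held 51.1 C/EBPα summits per Mb (39.2 to 65.5) and their bases outside H3K27me3 held 211 (187 to 238). For Hoxa9 the values were 4.94 (6 summits, 1.81 to 10.8) and 93.2 (119 summits, 77.2 to 111). These intervals did not overlap and cover counting error only.

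**Figure D5:**
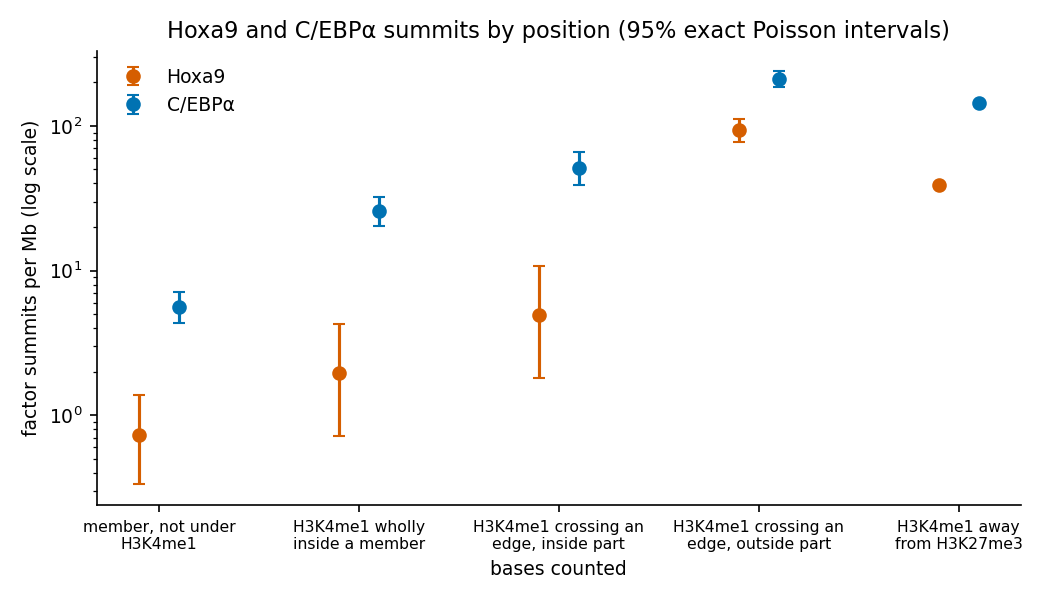
Hoxa9 and C/EBPα summits per Mb, on a log scale, in bases of dual regions not under H3K4me1, in H3K4me1 regions wholly inside a dual region, in the inside and outside parts of H3K4me1 regions that cross an edge, and in H3K4me1 regions that touch no H3K27me3. Points are densities and bars 95% exact Poisson intervals. Within regions that cross an edge, C/EBPα falls from 211 outside to 51.1 inside and Hoxa9 from 93.2 to 4.94.

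H3K4me1 regions of similar width showed the same order. Among H3K4me1 regions of 1000 to 2000 bp, a C/EBPα summit lay in 5.07% of 867 wholly inside a dual region (3.71 to 6.75) and in 21.5% of 21718 away from H3K27me3 (21.0 to 22.1). Among those of 500 to 1000 bp the shares were 1.21% of 1492 and 7.74% of 31687. A Hoxa9 summit lay in 3 of the 867 (0.346%, 0.0714 to 1.01) and in 5.26% of the 21718. H3K4me1 regions of 1000 to 2000 bp that crossed an edge, counted over their whole length, held C/EBPα in 18.1% of 659 and Hoxa9 in 7.13%.

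The place of factor summits in dual regions was described by distance to the nearer edge and to the H3K27me3 summit. The median distance of the 210 C/EBPα summits was 720.5 bp to the nearer edge and 876.5 bp to the H3K27me3 summit. For the 21 Hoxa9 summits the distances were 859 and 1608 bp. Within 500 bp of an edge lay 42.9% of C/EBPα summits (36.1 to 49.8), where that zone made up 33.5% of the width of their regions on average, and 47.6% of Hoxa9 summits (25.7 to 70.2) against 32.1%. The dual regions with a C/EBPα summit had a median width of 4479 bp, 0.121 H3K27me3 tags per bp and 33.1% of bases covered. Those without had 3401.5 bp, 0.103 tags per bp and 26.2%.

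In 2 of the 3 dual regions named for most factor summits, the summits of both factors lay within 2 bp of each other. At chromosome 5 from 135496290 to 135504956, a Hoxa9 summit with 109 tags (fold enrichment 18.04) at 135500929 and a C/EBPα summit with 34 tags (9.15) at 135500927 lay in an internal H3K4me1 region of 3879 bp. At chromosome 2 from 36056947 to 36061986, summits at 36057052 and 36057053, with 35 and 42 tags, lay in the H3K4me1 region that crossed the edge. The third, at chromosome 2 from 173408954 to 173412720, held 2 C/EBPα summits with 21 and 17 tags. All 5 dual regions with both factors, and the others with 2 summits, tied at this number, and the 3 with the highest fold enrichment were named.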

How the data were processed

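Peaks of 4 ChIP-seq libraries, 1 per group, were used. The submitters' processing notes name BWA 0.6.2, MACS 1.4, CASAVA 1.8.2 and build mm9. Their settings and the caller's control were not given in the sources used here. Values per peak in the deposited lists are, per the file headers, positions, summits, whole-number tag counts per peak, a p score (10 times −log10 of the p-value), fold enrichment (a ratio) and a false discovery rate in percent, all deposited by the authors and not normalized between libraries. Regions less than 1000 bp apart were kept separate as deposited, which affects widths.

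Overlaps (at least 1 bp), placement, coverage and shifted lists were computed with Python 3.11.15, numpy 2.4.6, pandas 2.3.3 and scipy 1.17.1. Shifts were circular within the span of the lists on each chromosome. Levels by distance used 20 of the 80 shifts. The code was tested on simulated lists. The members, the width classes and the naming rule were chosen with earlier results of these data known. Shares carry exact Clopper-Pearson intervals at 95%. Regions named were the 2 of highest fold enrichment in each placement class, the 3 with most factor summits, with most covered bases and, from 5000 bp, with least coverage, and those at the limits of the rule. No genome of build mm9 was used here, so no sequence is shown.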

Additional observations from a re-analysis of the deposited data

How the results depend on the processing

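Of 109 recomputed values (9 results, 15 settings), 51 moved by less than their counting interval or spread, 55 moved further and 3 changed side. A change of side was counted only for ratios to shifted lists. Some of the 51 could not differ: all 9 results at a false discovery rate of 5% or less, which removed 0 regions. The ratio under 1000 bp also could not differ when the width limit was 5000 bp or absent. For all recomputed values the cause was not tested. The opposite pattern by width kept its direction in every setting that gave a value: the ratio to shifted lists stayed under 1 below 1000 bp and over 1 from 2000 bp on (1.76). The pooled ratio (0.858) did not keep its side: it was 1.22 in the upper 50% of the H3K27me3 list by p score, 1.05 at a false discovery rate of 1% or less and 1.52 with 200 random shifts of any size along the chromosome. With the upper 50% of H3K27me3, the share with H3K4me1 was 24.9%, the ratio under 1000 bp 0.404, the median coverage 24.7%, the share with H3K4me1 only inside 62.0% and the median density 0.115 tags per bp. At a rate of 1% or less the same 5 values were 19.9%, 0.349, 25.5%, 59.2% and 0.110. With shifts of any size the ratio was 0.527 under 1000 bp and 2.97 from 2000 bp, and with shifts of at most 100 kb the pooled ratio was 0.900 and that under 1000 bp 0.315. With the upper 50% of H3K4me1, the share was 9.46%, the pooled ratio 0.761, that under 1000 bp 0.232, that from 2000 bp 1.63, the coverage 28.8%, the inside share 50.4%, the density 0.112 and the C/EBPα share 5.89%. Joining H3K27me3 regions less than 1000 bp apart gave a share of 18.3%, a pooled ratio of 0.977, a ratio from 2000 bp of 1.45, a coverage of 23.2%, an inside share of 62.5% and a density of 0.101. Requiring the H3K27me3 summit under H3K4me1 gave 9.48%, 0.986, 3.17, 33.5%, 63.2% and 0.124 for the same 6 values. A width under 5000 bp gave 10.7%, 0.663, 1.52, 34.6%, 42.0% and 0.0791, with a C/EBPα share of 4.17%. The inside share was thus a minority at that width limit (interval 40.2 to 43.9). With the upper 50% of H3K4me1 the interval of the inside share (48.5 to 52.3) included 50%. No width limit gave a share of 16.4%, a pooled ratio of 0.919, a coverage of 24.4%, an inside share of 59.2%, a density of 0.116 and a C/EBPα share of 5.87%. An overlap of at least 100 bp gave a share of 14.3%, a coverage of 27.5% and an inside share of 57.5%, and adding chromosome X gave a share of 13.2%. Counting called factor peaks in place of summits gave 1.50% for Hoxa9 and 7.85% for C/EBPα, and the upper 50% of the factor lists 0.141% and 1.78%. The limit of 1%, the exclusion of regions of 0.5 or more tags per bp and the 2 ratios by width were chosen after seeing the data; a limit of 5% removed 0 regions. No paired analysis was possible because each list came from 1 library. Depth limits all shares: a region absent from a list may lie under the caller's threshold, and the depth of each library is unknown.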

Other observations

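About as many dual regions as others had a close H3K27me3 neighbour. A second H3K27me3 region lay less than 1000 bp away for 2307 of 4269 dual regions (54.0%) and for 13476 of 24621 regions without H3K4me1 (54.7%). Within width classes, dual regions of 2000 to 5000 bp had such a neighbour in 50.2% of cases against 56.5%, those of 1000 to 2000 bp in 52.7% against 63.9%, and those of 5000 to 10000 bp in 59.6% against 62.2%. Under 1000 bp the order was the opposite, with 52.7% against 50.3%. A region of 10000 bp or more lay that close to 71 dual regions (1.66%) and to 559 others (2.27%), while under 1000 bp the shares were 1.94% and 1.47%.

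Of the 676 autosomal H3K27me3 regions of 10000 bp or more, 585 met H3K4me1. Such wide regions meet a list more easily by position, and no shifted level was computed for them alone. Chromosome X held 4203 H3K27me3 regions of all widths, and 82 of those under 10000 bp met H3K4me1. Adding chromosome X lowered the share of regions under 10000 bp with H3K4me1 from 14.8% of 28890 to 13.2% of 33081. The pooled ratio to shifted lists was then 0.859, and no shifted level was computed for chromosome X alone. Within dual regions of 5000 to 10000 bp, denser H3K27me3 went with a larger share of bases under H3K4me1 (Spearman's rho = 0.238 over 1412 regions that share 2 libraries). In narrower classes rho was 0.113 (2000 to 5000 bp), 0.138 (1000 to 2000 bp) and 0.0059 (under 1000 bp), while over all widths the relation had the opposite sign (rho = -0.334), as had that of width and coverage (rho = -0.522). These are descriptions across regions with no test.

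A density of 0.5 or more H3K27me3 tags per bp was reached by 0 of 4269 dual regions, whose highest was 0.401. It was reached by 7 of 24621 regions without H3K4me1, whose highest was 2.07. With only 7 such regions among all 28890 under 10000 bp, no difference between the sets can be read.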
